A study of Mus musculus with 18 samples.

Results

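The cytosolic ribosomal protein genes were examined across 18 intestinal tumours of mice that differed in Macrod2. They were taken by symbol, as genes named Rpl, Rps or Rplp with a number or Rpsa, and kept where the mean count over the 18 libraries reached 50. The naming rule matched 87 of 24062 genes in the table and the minimum kept 79, which are 40 proteins of the large subunit, 30 of the small subunit, the 3 stalk proteins and 6 paralogues or other genes that share the naming. Of the last, Rps19bp1 encodes a protein that binds Rps19 and is not itself a ribosomal protein, and GENCODE annotates Rps4l as a transcribed processed pseudogene.

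All mice were male C57BL/6 animals with 1 Min copy of Apc, the tumour suppressor that holds Wnt signalling down and whose loss starts intestinal adenomas, so the control tumours carried it as well. The genotypes were ApcMin/+/Macrod2-/- (hom), ApcMin/+/Macrod2-/+ (het) and ApcMin/+/Macrod2+/+ (wt), and Macrod2 encodes a macrodomain hydrolase of protein-bound mono-ADP-ribose. Tumours of the large intestine came from 6 hom, 5 het and 6 wt mice, numbered in the titles, with 1 tumour each. A further tumour, het 4, came from the small intestine and is given by itself. The labels give neither the ages of the mice nor the deleted stretch of Macrod2. Macrod2 RPKM (reads corrected for the length of the gene and the size of the library, as deposited) averaged 0.0314 ± 0.0288 in hom, 0.436 ± 0.149 in het and 0.741 ± 0.120 in wt tumours (SD, n = 6, 5 and 6), in the order of the labelled gene copies.

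Ribosomal proteins and ribosomal RNA form the small subunit, which reads the messenger RNA, and the large subunit, which joins amino acids. The proteins are needed in about equal numbers, and in mammals their messenger RNAs start with a terminal oligopyrimidine (TOP) tract, through which mTORC1 and LARP1 control their translation, so a change in protein output need not show in RNA levels. In intestinal tumours loss of Apc raises MYC, which drives transcription of ribosome genes. When ribosome assembly is disturbed, free Rpl5 and Rpl11 bind MDM2 and stabilise p53.

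The libraries held 13529204 (wt 4) to 20857918 (hom 1) counts, and the 12 epithelial markers (Epcam, keratins, Vil1, Cdx1, Cdx2 and others) summed to 8482 to 10671 RPKM in hom, 8278 to 9977 in het and 6736 to 12447 in wt tumours. A pair of libraries stood apart in ways that touch these genes. In wt 3, the ribosomal RNA precursor Rn45s took 26.99% of the counts, against at most 0.725% in any other tumour. In wt 4, the shallowest library, the 11 colon markers in the table summed to 2.27 RPKM, against 14.6 to 105 in the other 16 large intestinal tumours. Its 14 small intestine markers summed to 2942 RPKM, near the low end of the other 16, 2021 to 37120. Summed markers of fibroblasts (127 to 236, 145 to 210 and 133 to 211 RPKM in hom, het and wt tumours) and of leukocytes (30.8 to 49.1, 32.9 to 61.6 and 29.5 to 59.7) overlapped between genotypes. Summed mast cell markers varied far more, from 23.1 to 217 RPKM in hom tumours (median 102), from 35.2 to 1556 in het (median 63.6) and from 29.3 to 7717 in wt (median 512). Summed small intestine markers ran from 7320 to 20939 RPKM in hom, from 4888 to 21827 in het and from 2021 to 37120 in wt tumours, and the part of either in the results was not tested. Since the tumours were sequenced in bulk, fewer cells of a type and less RNA per cell cannot be told apart.

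The 79 genes together held 1.56, 3.25, 2.67, 2.06, 1.75 and 1.67% of the counts in hom 1 to 6, a mean of 2.16 ± 0.668% (SD, n = 6). They held 2.18, 2.55, 1.75, 1.91 and 2.65% in het 1, 2, 3, 5 and 6, a mean of 2.21 ± 0.391% (SD, n = 5). They held 1.90, 1.95, 1.30, 3.55, 2.78 and 2.28% in wt 1 to 6, a mean of 2.29 ± 0.784% (SD, n = 6). The lowest and the highest share were both in wt tumours, and the ranges of the 3 genotypes overlapped almost entirely. With Rn45s left out of the totals the share in wt 3 became 1.78%, and the lowest share then lay in hom 1. The small intestinal tumour, at 1.92%, lay inside the range of the large intestinal ones.

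All 79 genes lay above the median of the 14271 tested genes in mean RPKM over the 17 large intestinal tumours, 9.25, and their own median was 215 RPKM. Their levels were far from equal, with a 236-fold range between the highest and the lowest. Rpl41, which encodes a very short basic peptide of the large subunit, was highest at 2543 RPKM and led in 17 of the 18 libraries; in wt 2 Rplp1 was higher. Rpl41 ran from 1483 to 4124 RPKM in hom tumours with a median of 1935. It was 2348, 2915, 2295, 2177 and 2970 RPKM in het 1, 2, 3, 5 and 6. It ran from 1863 to 4200 RPKM in wt tumours with a median of 2630, so the groups overlapped.

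Other members with high levels were Rplp1, an acidic stalk protein, at 1631 RPKM, Rpl8 at 1301 and Rps9 at 1217. Rps9 binds ribosomal RNA of the small subunit, and Rpl8 lies near the centre where peptide bonds form. Medians by position were 303 RPKM for the small subunit, 164 for the large subunit, 1128 for the stalk and 63.7 for the paralogues and other genes. The 10 highest genes held 46.9% of the summed RPKM, and 38 of 79 lay within 2-fold of the median. The order of the genes was much alike in all tumours, with a lowest Spearman correlation between any 2 large intestinal tumours of 0.971, taken across the 79 genes, which are not independent replicates.

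At the low end stood Rps29, a zinc-binding protein of the small subunit, at 10.8 RPKM, followed by Rps15a at 25.9, Rpl12 at 31.8, and Rpl9 and Rps4l at 32.3 each. The authors' RPKM rests on a gene length of 5134 bases for Rps15a, while the median length of the 79 genes was 725 bases. Just inside the count minimum lay Rps29 with a mean count of 72.7, Rps12 with 320, Rpl12 with 346 and Rpl9 with 406. Just outside lay Rpl34 with 21.5, Rps27 with 18.7, Rpl30 with 10.9 and Rpl3l with 0.556. Rpl34, Rps27 and Rpl30 encode subunit proteins of every cell, yet their counts were 3 to 45 in any library. Rpl26, another such gene, had a count of 0 in every library, as had Rpl10l and Rps27rt, and Rpl39l had a mean of 0.389. Rpl10l and Rpl39l are the testis forms of Rpl10 and Rpl39, and Rpl3l is the striated muscle form of Rpl3.

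**Figure D1:**
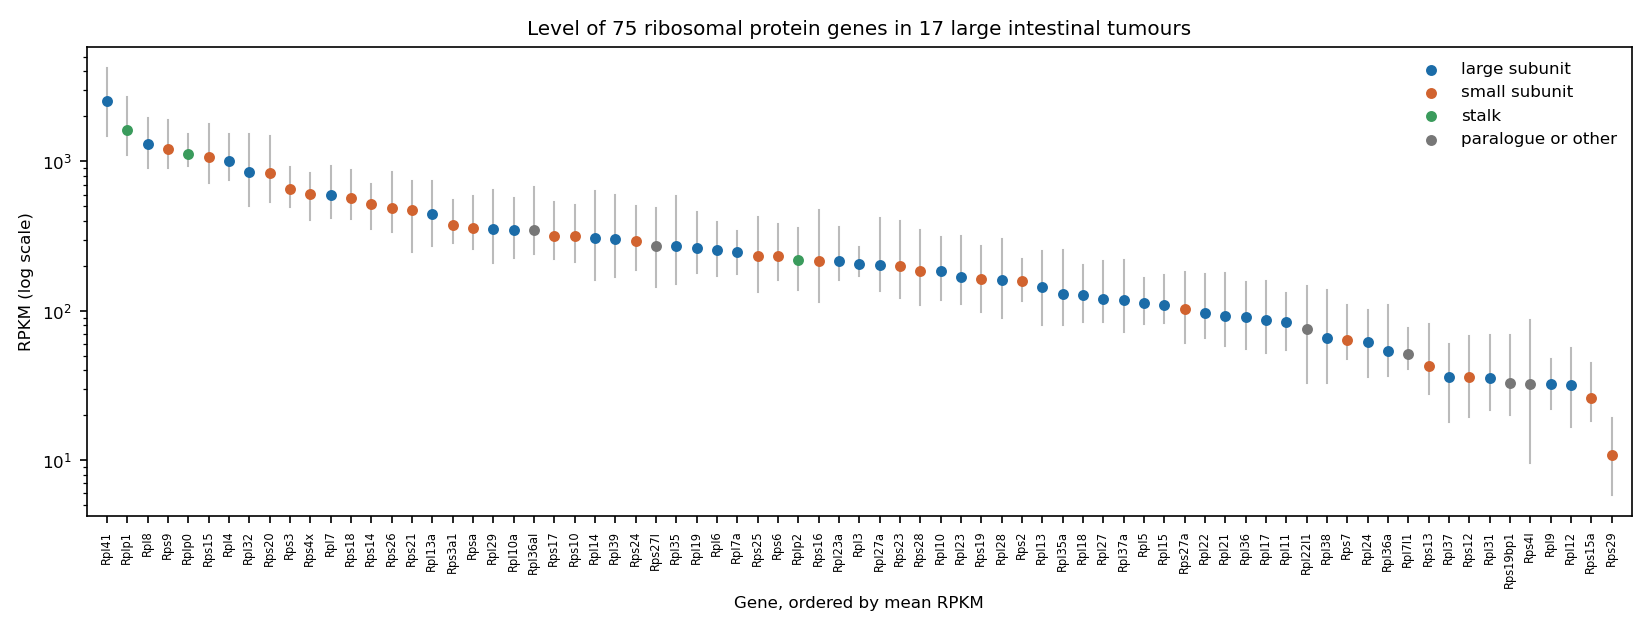
Mean deposited RPKM of 75 of the 79 genes over 17 large intestinal tumours (points, coloured by position in the ribosome), with the lowest and highest tumour (grey lines), on a log axis. The order runs from Rpl41 at 2543 RPKM to Rps29 at 10.8.

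Ribosomal protein genes have many processed copies in mammalian genomes, and reads that match more than 1 place can be dropped or split in counting. Sharing was measured on GENCODE transcripts as the part of all 50-base words of a gene's main transcript that also occurs in a transcript of another, non-overlapping locus. The median of the 79 genes was 49.3%, 39 genes were over 50%, and Rps19bp1 was at 0. Rpl9 at 93.3% and Rps12 at 90.1%, both among the 4 genes just above the count minimum, were the highest of those kept, while below the minimum Rps27 reached 98.6% and Rps27rt 91.1%. Rpl26 at 61.0%, Rpl30 at 47.8% and Rpl34 at 37.9% lay near the middle. The median level was 302 RPKM for the 23 genes under 35% shared, 210 RPKM for the 30 genes from 35 to 65% and 172 RPKM for the 26 genes above 65%. Across the 79 genes the Spearman correlation of sharing with mean RPKM was -0.23, a description over genes of the same libraries. The measure counts annotated transcripts alone, not every copy in the genome, and the sources used here do not say how multiply mapped reads were counted, so levels of genes with much sharing are uncertain.

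**Figure D2:**
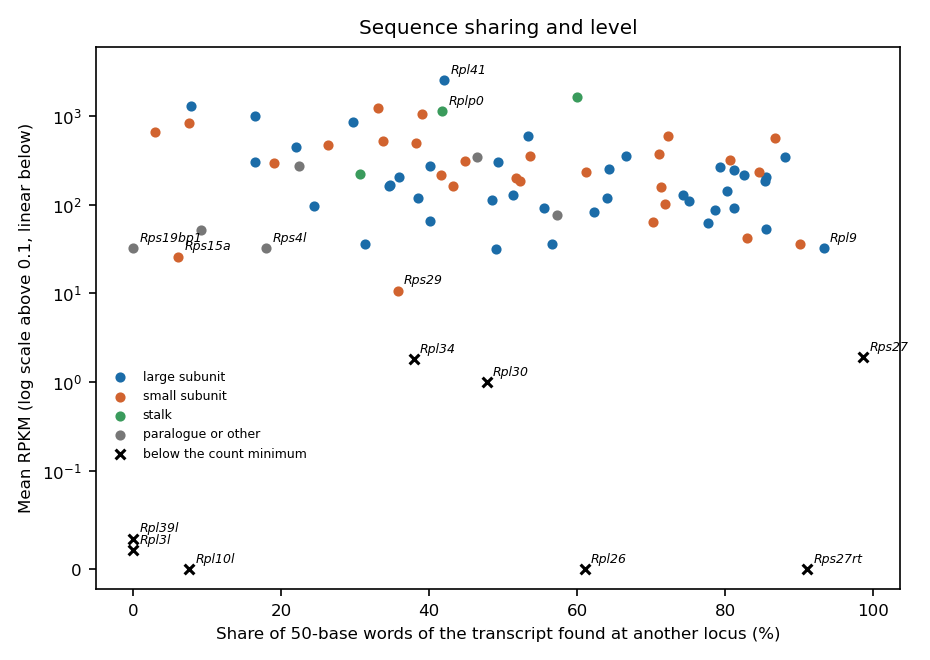
Mean RPKM over 17 large intestinal tumours (log scale above 0.1, linear below) against the share of 50-base words found at another annotated locus, for 75 of the 79 genes and the 8 below the count minimum (crosses). Rpl9 at 93.3% stands at 32.3 RPKM, while Rps27 at 98.6% lies below the minimum.

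What the genes share in sequence was read from the annotated starts in RefSeq, for 59 of the 79 genes that have a promoter in the table of build GRCm38.p6. A TOP start was counted where the base at an annotated start is C and at least 4 pyrimidines (C or T) follow on the transcribed strand. It was present in 12 of 59 genes, 20.3%, against 307 of 10571 other tested genes, 2.90%, and 3.01% of all genes in the table. These are the tracts of 7 of them, with 15 bases before the start, the tract in capitals and the next bases in lower case, chosen to show both subunits and the stalk:
Rps6 (chr4:86857353-86857382, minus strand): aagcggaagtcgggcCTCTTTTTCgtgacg
Rps10 (chr17:27635230-27635259, minus strand): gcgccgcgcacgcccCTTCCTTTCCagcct
Rps18 (chr17:33955651-33955680, minus strand): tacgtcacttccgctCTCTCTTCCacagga
Rpl15 (chr14:18270972-18271001, minus strand): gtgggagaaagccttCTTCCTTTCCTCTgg
Rpl35 (chr2:39005117-39005146, minus strand): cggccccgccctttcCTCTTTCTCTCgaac
Rpl38 (chr11:114668565-114668594, plus strand): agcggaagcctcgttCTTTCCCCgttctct
Rplp2 (chr7:141447636-141447665, plus strand): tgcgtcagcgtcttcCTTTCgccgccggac

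The same window of 4 genes without such a start is given for contrast, with no capitals, since no tract of the kind counted begins at their annotated start:
Rpl41 (chr10:128549154-128549183, minus strand): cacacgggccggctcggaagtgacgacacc
Rplp0 (chr5:115559452-115559481, plus strand): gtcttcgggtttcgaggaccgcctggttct
Rpl22l1 (chr3:28805493-28805522, plus strand): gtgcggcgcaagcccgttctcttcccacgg
Rpl7l1 (chr17:46782642-46782671, minus strand): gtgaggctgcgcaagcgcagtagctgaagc

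Rpl22l1 holds a pyrimidine run just past the annotated start, and Rpl7l1 shows no such run in these letters. Allowing C or T at the start gave 15 genes, 25.4%, against 5.07% of other tested genes, and allowing a tract that begins with C within 5 bases of the start gave 27 genes, 45.8%, against 23.7%. The strict count was 4 of 16 for translation factors and other TOP genes and 0 of 68 for mitochondrial ribosomal proteins. A match describes letters at an annotated start and not a measured start of transcription.

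Some of the genes were also hosts of other genes. In vertebrates, introns of ribosomal protein genes often hold small nucleolar RNAs, which guide the modification of ribosomal RNA. On mm10, 29 of the 79 genes (36.7%) held at least 1 snoRNA gene on the same strand, 57 in all, against 222 of 13524 other tested genes (1.64%). Rpl4 (chr9:64173375-64178666) held 5 snoRNA genes, and Rpl13a (chr7:45125558-45128761) held 4. The 79 genes lay on 19 chromosomes, with 14 on chromosome 7, so they did not form a block in the genome.

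Across tumours the genes moved together. For each gene the log2 CPM (counts scaled to library size by TMM) was set against its own mean over the 17 large intestinal tumours, and the mean of the 79 deviations was taken in each tumour. This family mean was -0.54, 0.53, 0.33, -0.13, -0.36 and -0.45 in hom 1 to 6. It was -0.10, 0.14, -0.23, -0.25 and 0.33 in het 1, 2, 3, 5 and 6, and -0.10, 0.10, -0.44, 0.79, 0.29 and 0.09 in wt 1 to 6. The highest tumour, wt 4, stood 2.50-fold above the lowest, hom 1, while het 4 of the small intestine lay at -0.08. Each genotype held tumours on both sides of 0.

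Within a tumour nearly all genes took the same side. In hom 1, hom 6 and wt 3, 0 of 79 genes lay above their own mean, and in hom 2 and wt 5 all 79 did. In wt 4 and het 6 78 did, and in hom 3, hom 4 and hom 5 74, 5 and 1 did. The tumours near the family average were mixed, with 18 genes above in het 1 and 8 in wt 1. In deposited RPKM, 73 of the 79 genes were highest in wt 4 among the 17 tumours, and 46 were lowest in hom 1.

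The family mean of the other members accounted for a median of 90.6% of a gene's variance across the 17 tumours. The median SD of a gene across tumours was 0.398 log2 units, against 0.333 for all tested genes, and it was 0.119 once the family mean was taken off, with 58 of 79 genes under 0.15. The SD was larger for short genes, 0.428 for the 37 genes of at most 700 bases, 0.379 for the 24 of up to 1000 bases and 0.339 for the 18 longer ones. Other short genes moved alongside. The median deviation of 485 other tested genes of at most 725 bases was -0.33, 0.43, 0.16, -0.10, -0.31 and -0.43 in hom 1 to 6, and -0.12, 0.11, -0.09, -0.18 and 0.21 in het 1, 2, 3, 5 and 6. It was -0.01, 0.12, -0.31, 0.60, 0.11 and 0.17 in wt 1 to 6. Genes over 4000 bases went the other way at the extremes, with medians of 0.20 in hom 6 and -0.27 in wt 4. The part of gene length or RNA quality in the common movement was not tested.

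**Figure D3:**
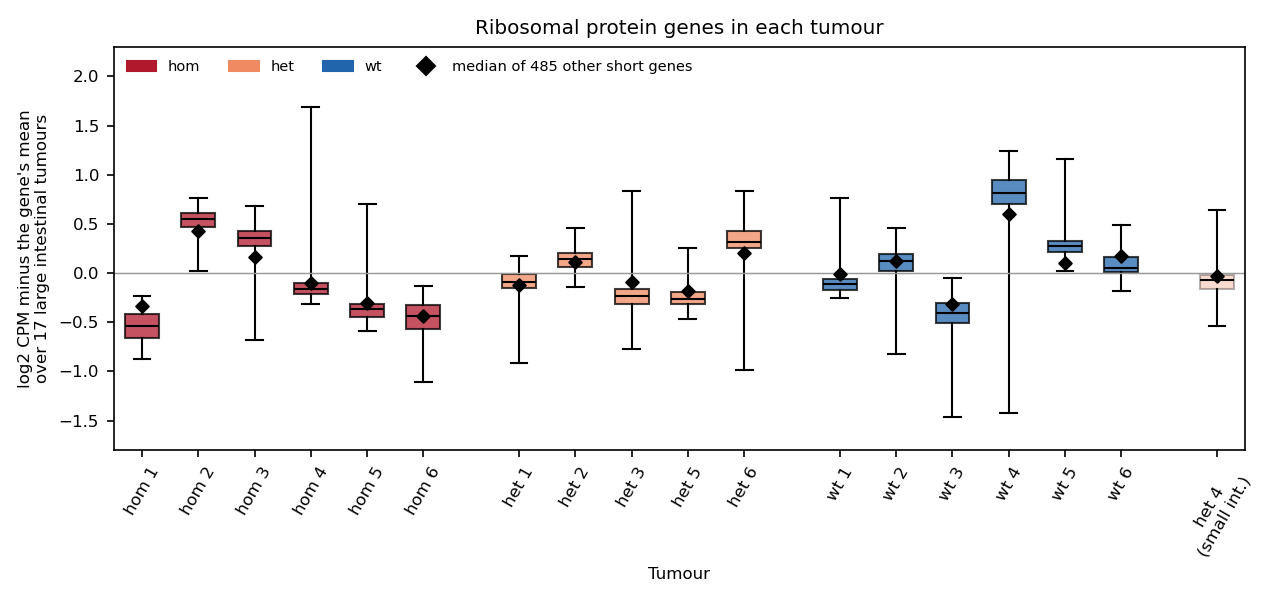
Deviation of the 79 genes from their own means (log2 CPM) in each tumour, grouped as hom, het and wt, with het 4 of the small intestine at the right; boxes show the quartiles and the median, whiskers the lowest and highest gene, and diamonds the median of 485 other genes of at most 725 bases. The boxes and diamonds of wt 4 and hom 2 lie highest. The box of hom 1 lies lowest, while the lowest diamond is that of hom 6, at -0.43.

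Among the genes closest to the family mean were Rpl6 with a residual SD of 0.055 log2 units, Rpl19 with 0.059, Rpl10 with 0.066 and Rps15 with 0.070. Rpl6 ran from 170 to 343 RPKM in hom tumours with a median of 213, was 237, 276, 206, 211 and 311 RPKM in het 1, 2, 3, 5 and 6, and ran from 196 to 394 RPKM in wt tumours with a median of 255. These values follow the family closely, and the groups overlapped.

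The genes that departed most were Rps4l with a residual SD of 1.03, Rpl12 with 0.306, Rpl7l1 with 0.265, Rpl22l1 with 0.252, Rps29 with 0.238 and Rpl3 with 0.234. Rps4l (chr6:148354656-148355598, plus strand) lies inside Tmtc1 and resembles Rps4x, a small-subunit protein encoded on the X chromosome. Rps4l ran from 16.7 to 86.6 RPKM in hom tumours with a median of 27.4, was 14.1, 37.0, 47.9, 32.0 and 13.5 RPKM in het 1, 2, 3, 5 and 6, and ran from 9.63 to 60.3 RPKM in wt tumours with a median of 29.9. It had 99 counts in wt 3 and 1685 in hom 4, whereas Rps4x ran from 405 to 793 RPKM in hom and from 430 to 841 RPKM in wt tumours. High and low tumours occurred in every genotype.

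Rpl12 (chr2:32961559-32965345), a protein of the stalk base, was farthest from the family in wt 2, where it was 0.92 log2 units below it, and in het 6, where it was 0.50 above, and its residual SD was 0.205 without wt 1, wt 2 and wt 3. It ran from 17.7 to 49.6 RPKM in hom tumours, from 21.3 to 53.2 in het and from 16.7 to 56.1 in wt, with all 3 groups overlapping. Rpl3, which reaches toward the peptide bond centre, changed less between tumours than any other member, with an SD of 0.219, followed by Rplp0 with 0.227 and Rps2 with 0.236. In wt 4, where the family was highest, Rpl3 was 0.67 and Rplp0 0.47 log2 units below it. Rpl3 ran from 174 to 269 RPKM in hom tumours with a median of 195, was 215, 231, 171, 171 and 246 RPKM in het 1, 2, 3, 5 and 6, and ran from 178 to 247 RPKM in wt tumours with a median of 197. Rpl3 shares 85.6% of its words with other loci. Rps29, at a low count, ran from 6.02 to 16.3 RPKM in hom, 9.83 to 14.9 in het and 5.87 to 19.3 in wt tumours.

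**Figure D4:**
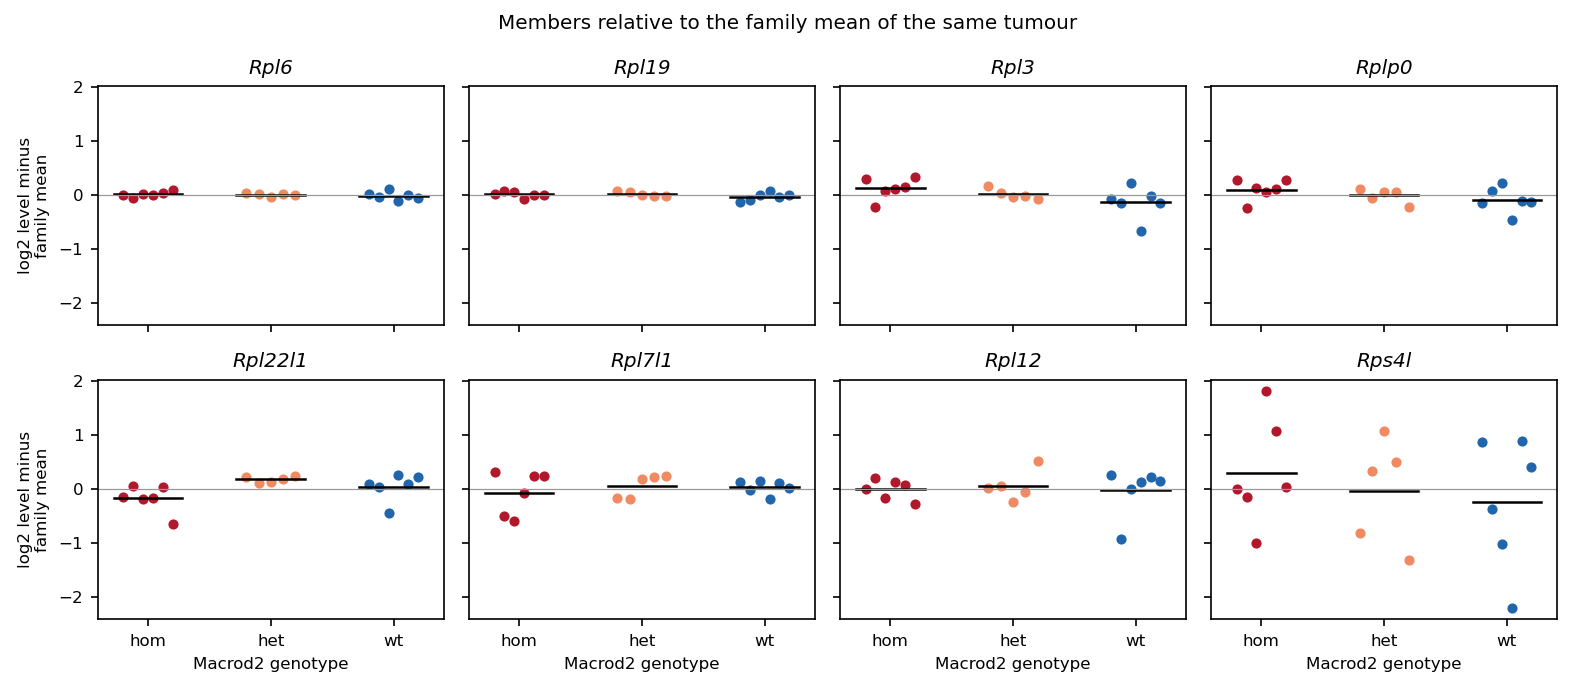
Level of 8 members relative to the family mean of the same tumour (log2 units) in hom, het and wt tumours; each point is a tumour and each line a group mean. Rpl6 and Rpl19 stay close to 0 in every tumour, while Rps4l spreads widely in every genotype and wt 2 stands low for Rpl12.

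Loss of both Macrod2 copies was tested first. In hom against wt tumours 0 of 79 genes passed an adjusted p of 0.05 in edgeR's quasi-likelihood test, DESeq2 or limma-voom, where 0.00701%, 0.154% and 0.00701% of all tested genes did. At an unadjusted p under 0.05 edgeR gave 2 of the 79, against 16.0% of all tested genes, and DESeq2 and limma-voom gave 1 each, against 17% and 15.7%. The estimate was below 0 for 77 of the 79 genes, against 54.3% of all tested genes. Their median log2 fold change was -0.25, against -0.03 over all tested genes, in a range from -0.48 to 0.21. The median half-width of a gene's 95% interval was 0.459, so changes of this size were not resolved for single genes. In RPKM all 79 genes overlapped between hom and wt tumours. The share of all tested genes that overlap was not counted, so this count does not set the family apart.

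The direction leaned on 1 tumour. Without wt 4, 56 of 79 estimates were below 0 and their median was -0.055. The 485 other short genes had a median of -0.29 with all tumours, 358 of them below 0, and of -0.14 without wt 4. Subunits did not stand apart, with medians of -0.25 for the large and -0.23 for the small subunit. The part of gene length, RNA quality and the low colon markers of wt 4 in this difference was not tested.

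The 2 genes with an unadjusted p under 0.05 in hom against wt were both paralogues. Rpl7l1 (chr17:46773907-46782672, minus strand), a relative of Rpl7 whose yeast counterpart acts in ribosome assembly, was 41.6 to 51.3 RPKM in hom tumours with a median of 43.5, was 41.9, 48.5, 48.6, 49.6 and 74.8 RPKM in het 1, 2, 3, 5 and 6, and was 41.1 to 76.2 RPKM in wt tumours with a median of 53.6. The groups overlapped, and the log2 fold change of hom against wt was -0.38 (SE 0.146, edgeR adjusted p = 0.272). Rps27l (chr9:66946086-66949516, plus strand), a paralogue of Rps27 and a p53 target, was 145 to 351 RPKM in hom tumours with a median of 217, was 241, 276, 238, 240 and 350 RPKM in het 1, 2, 3, 5 and 6, and was 184 to 491 RPKM in wt tumours with a median of 297. Its log2 fold change was -0.45 (SE 0.213, edgeR adjusted p = 0.312), and the groups overlapped. Next by p came Rpl31 with -0.45, Rpl36al with -0.41 and Rpl35 with -0.47. Rpl35 (192 to 591 RPKM in wt tumours) sits at the exit of the peptide tunnel, as Rpl31 does, and had its highest value in wt 4. Only Rps4l, with 0.21 (SE 0.517), and Rpl3, with 0.02 (SE 0.130), had estimates above 0.

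Other members with known roles gave the same picture. The ribosomal stalk recruits elongation factors, and its log2 fold changes in hom against wt were -0.05 (SE 0.139) for Rplp0, -0.31 (SE 0.213) for Rplp1 and -0.25 (SE 0.210) for Rplp2. Rps6, the classic substrate of S6 kinase below mTORC1, was at -0.23 (SE 0.188), and Rpsa, the laminin receptor protein of the small subunit, at -0.26 (SE 0.197). Rpl5 and Rpl11, which bind MDM2 when assembly is disturbed, were at -0.07 (SE 0.187) and -0.20 (SE 0.218). Rpl5 ran from 82.0 to 165 RPKM in hom tumours with a median of 95.3, and from 81.2 to 161 RPKM in wt tumours with a median of 109. Rps19, mutated in human Diamond-Blackfan anaemia, was at -0.20 (SE 0.232). Rpl10 was at -0.28 (SE 0.188) and Rpl10a at -0.20 (SE 0.211); both lie in the large subunit. Rpl38, known from mouse work on Hox messenger RNA translation, was at -0.36 (SE 0.304), Rpl13a, also a translation repressor in myeloid cells, at -0.27 (SE 0.244), and Rpl39, at the tunnel wall, at -0.38 (SE 0.251). All had edgeR adjusted p above 0.3 and none was resolved from 0.

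With 1 Macrod2 copy lost, het against wt tumours gave 0 of 79 genes past an adjusted p of 0.05 in edgeR, DESeq2 and limma-voom, as for all tested genes (0.0% in each), and 0 at an unadjusted p under 0.05, against 2.85% of all tested genes in edgeR, 3.49% in DESeq2 and 2.38% in limma-voom. The estimate was below 0 for 76 of 79 genes, against 56.8% of all tested genes, with a median of -0.20 against -0.03 and a median half-width of 0.482. Without wt 4 the split was 40 below and 39 above 0, and the median -0.00076, while the other short genes moved to -0.05, against -0.22 with all tumours. By p, Rpl23 (-0.47, SE 0.224), Rps26 (-0.40, SE 0.202), Rpl36a (-0.48, SE 0.256), Rps16 (-0.49, SE 0.290) and Rpl36al (-0.38, SE 0.227) were the lowest. Rpl23 ran from 119 to 183 RPKM in het and from 140 to 315 RPKM in wt tumours, with its highest value in wt 4. The 3 estimates above 0 were Rpl37 with 0.05, Rps14 with 0.003 and Rps21 with 0.003. Both comparisons share the wt tumours, so their values are not independent of each other.

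The loss of the second copy, hom against het, gave 0 of 79 genes past an adjusted p of 0.05 in all 3 tools, against 0.00701% of all tested genes in edgeR and limma-voom and 0.00702% in DESeq2. At an unadjusted p under 0.05 there were also 0, against 2.0% of all tested genes in edgeR, 2.45% in DESeq2 and 1.99% in limma-voom. The estimate was below 0 for 56 genes, against 51.8% of all tested genes, with a median of -0.05 against -0.01 and a median half-width of 0.481. The median passed to the other side of 0 without hom 1 (0.031), hom 5 (0.005), hom 6 (0.025) or het 6 (0.044). By p, Rpl7l1 (-0.23), Rpl22l1 (-0.36), Rps21 (-0.32), Rpl37 (-0.31) and Rps2 (-0.15) were the lowest, and Rpl23 (0.22), Rps18 (0.18), Rps26 (0.14) and Rpl21 (0.16) were among the highest. At these half-widths, differences smaller than these were not detectable for a typical member.

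**Figure D5:**
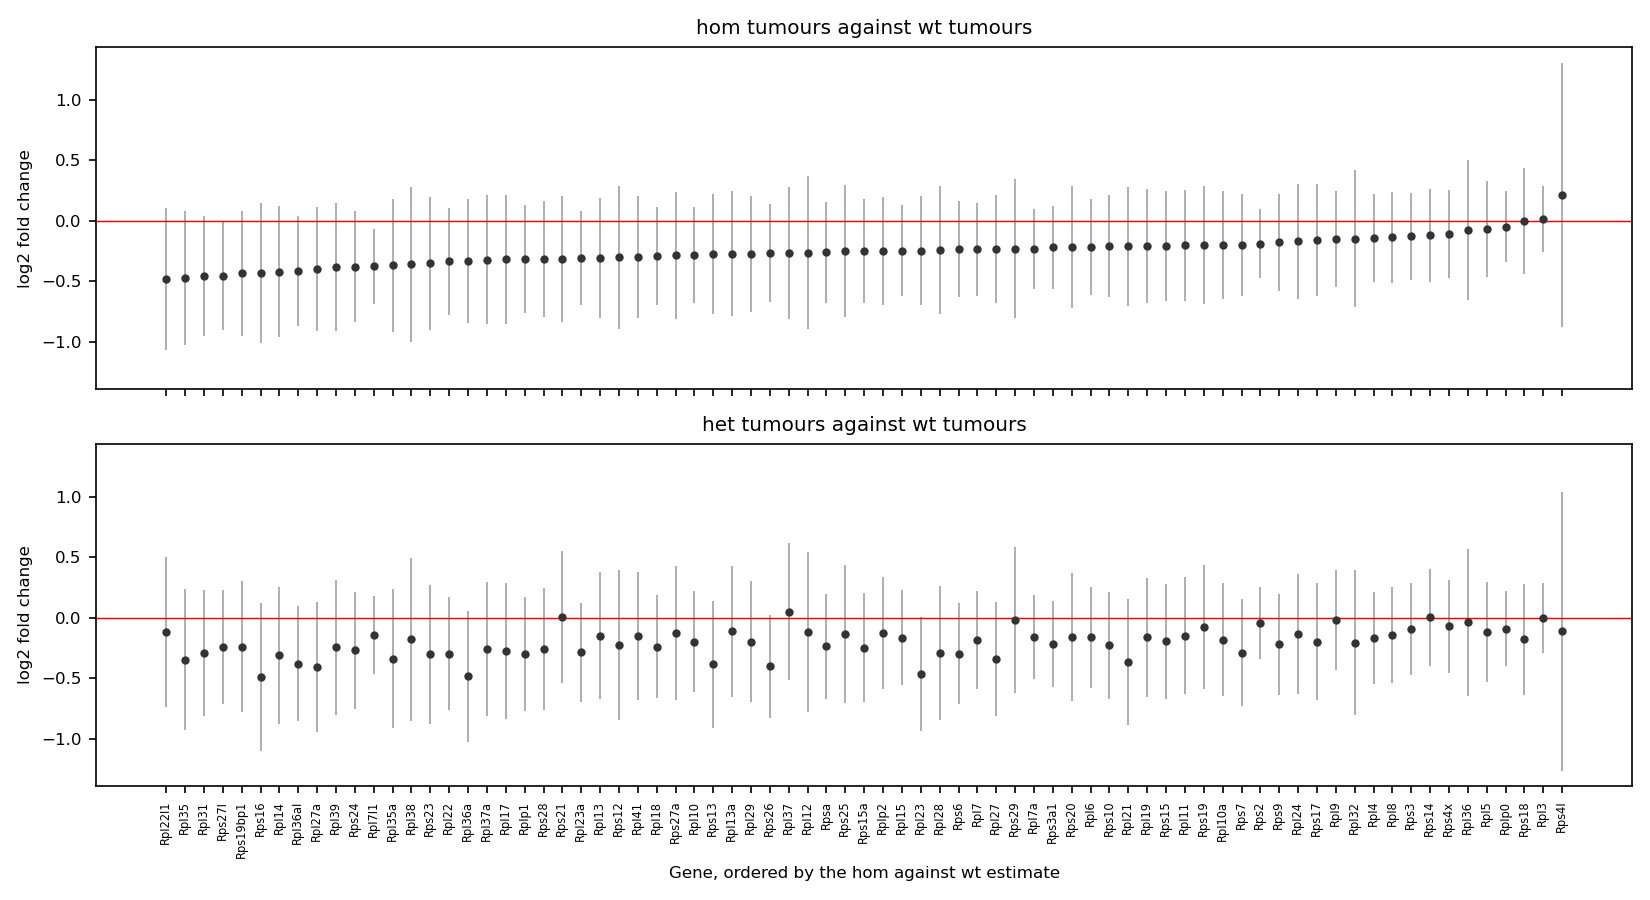
log2 fold change of 75 of the 79 genes (points) with 95% interval (lines) from the edgeR fit, for hom against wt tumours (top) and het against wt tumours (bottom), in the order of the hom against wt estimate. Of the points, 2 lie above 0 in the top panel and 3 in the bottom panel, and all lines cross 0 except those of Rpl7l1 and Rps27l in the top panel.

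Paralogues were compared within a tumour, as the percent of the pair's summed RPKM. Rpl22l1, which replaces Rpl22 in cells that lose it, took 37.6, 43.9, 41.7, 42.6, 45.2 and 33.1% of the Rpl22l1 and Rpl22 sum in hom 1 to 6. It took 47.1, 46.4, 45.9, 46.0 and 48.7% in het 1, 2, 3, 5 and 6, and 46.1, 43.7, 34.9, 45.4, 43.2 and 45.6% in wt 1 to 6. All hom tumours lay below all het tumours, and both overlapped wt. How many other gene pairs separate the same tumours was not counted, so whether this is unusual is not known. The means were 40.7 ± 4.52% in hom, 46.8 ± 1.17% in het and 43.1 ± 4.22% in wt tumours (SD, n = 6, 5 and 6). In exact two-sided permutation tests hom against het gave p = 0.00433, the smallest these groups allow, and 0.052 after Benjamini-Hochberg adjustment over 12 comparisons of 4 pairs (n = 6 and 5). Het against wt gave p = 0.013, adjusted 0.078, and hom against wt p = 0.323, adjusted 0.712 (exact permutation, n = 5 or 6). No pair passed 0.05 after adjustment. For hom against het this says little, since full separation in a single comparison of these group sizes adjusts to 0.052 at best. Rpl22l1 itself was 32.8 to 106 RPKM in hom tumours with a median of 57.4, was 77.4, 84.0, 65.9, 68.1 and 106 RPKM in het 1, 2, 3, 5 and 6, and was 38.2 to 146 RPKM in wt tumours with a median of 82.9.

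In the other 3 pairs the smallest exact permutation p was 0.0563, for Rpl36al in hom against het, 0.225 after adjustment (n = 6 and 5). Rpl36al took 86.0 ± 1.23% of its sum with Rpl36a in hom, 87.5 ± 0.931% in het and 86.7 ± 1.47% in wt tumours. Rpl7l1 took 7.77 ± 1.66, 8.40 ± 1.49 and 8.20 ± 0.459% of its sum with Rpl7 in the same order of genotypes. Rps4l took 5.97 ± 4.02, 4.75 ± 2.69 and 4.74 ± 2.85% of its sum with Rps4x, from 1.17% in wt 4 to 13.3% in hom 4. Sequence shared between the genes of a pair was not measured, so the division of reads between them is uncertain.

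Genes that work with the ribosome were set beside the family from lists. In hom against wt tumours Fau, a ribosomal protein gene outside the naming rule, had an estimate of -0.19 (SE 0.209). Gnb2l1 (Rack1), another such gene, averaged 1270 ± 276 RPKM in hom, 1304 ± 199 in het and 1299 ± 235 in wt tumours (SD, n = 6, 5 and 6). Of the mitochondrial ribosomal proteins, which translate the messages of mitochondrial DNA, 76 of 77 were below 0 with a median of -0.30, and Mrpl42 was at -0.67 (SE 0.204) and Mrps6 at -0.69 (SE 0.216). Of the RNA polymerase I and ribosome biogenesis genes, 78 of 87 were below 0 with a median of -0.28, and Znrd1, a polymerase subunit, was at -0.51 (SE 0.172) and the helicase Ddx18 at -0.40 (SE 0.136). All 21 proliferation genes were below 0, with a median of -0.42, and 2 of them had an unadjusted p under 0.05 in edgeR. Their median deviation ran from -1.01 (hom 3) to 0.13 log2 units in hom tumours. It ran from -0.65 to 0.69 in het and from -0.18 to 0.74 in wt tumours, so the groups overlapped. None of these lists held a gene past the threshold in any of the 3 comparisons in edgeR. In hom against wt, 31 of 77 mitochondrial ribosomal proteins and 24 of 87 biogenesis genes lay below 0 at an unadjusted p under 0.05. Of all tested genes, 16.0% had such a p in either direction. Among the 485 other genes of at most 725 bases, 120 had such a p in either direction, and their median estimate was -0.29. Whether the 2 lists differ from those short genes was not tested. The mitochondrial and biogenesis lists had their highest median deviation in wt 4, at 0.69 and 0.53 log2 units, followed by het 6 at 0.40 and 0.50. How far these counts lean on wt 4 was not tested.

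Translation factors and other TOP genes were mixed, with 16 of 22 below 0 and a median of -0.21 in hom against wt. The histone chaperone Nap1l1 was at -0.42 (SE 0.164) and the elongation factor subunit Eef1d at -0.49 (SE 0.199), whereas the elongation factor Eef2 was at 0.21 (SE 0.112). Of the MYC and mTORC1 regulators, 8 of 20 were below 0 with a median of 0.02, and the cap-binding protein Eif4e was at -0.26 (SE 0.127) and the MYC antagonist Mnt at 0.23 (SE 0.0987). Of the p53 targets, 8 of 18 were below 0 with a median of 0.06. Phlda3 was at -0.64 (SE 0.199) and Tnfrsf10b at -0.48 (SE 0.131), whereas Cdkn1a, the inhibitor of cyclin-dependent kinases, was at 0.29 (SE 0.191) and Bbc3, a promoter of apoptosis, at 0.43 (SE 0.239). The snoRNA host genes had 5 of 9 below 0 and a median of -0.14. The 3 tested RNAs without a polyA tail, among them Rn45s, had a median of -4.68, and wt 3 held most of the Rn45s counts.

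In het against wt tumours the medians were -0.21 for mitochondrial ribosomal proteins, -0.11 for the biogenesis genes, -0.18 for proliferation, -0.11 for translation factors, 0.02 for the MYC and mTORC1 regulators, -0.01 for the p53 targets and -0.24 for the snoRNA hosts. In hom against het tumours they were -0.11, -0.14, -0.26, -0.09, 0.01, -0.11 and 0.12 in the same order of lists. Estimates below 0 in hom against het were counted for 21 of 21 proliferation genes, 71 of 77 mitochondrial ribosomal proteins, 74 of 87 biogenesis genes and 0 of 9 snoRNA hosts, against 51.8% of all tested genes.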

How the data were processed

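RNA of 18 tumours was sequenced. Per the labels' protocols, tumours were resected, RNA was extracted with AllPrep DNA/RNA Mini columns, and libraries were made with a stranded total RNA kit (TruSeq); the molecule label instead reads polyA RNA. The deposited tables hold counts per gene and the authors' RPKM, which equals count over gene length and library total times a factor per library. Per the submitters' processing notes, Trimmomatic, TopHat and featureCounts (Subread 1.4.5-p1) were used with mm10; options, annotation and strand setting: not given in the sources used here.

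The counts of the 17 large intestinal tumours were fitted by genotype with edgeR 4.0.16 (TMM, filterByExpr, robust quasi-likelihood, 14271 genes), Benjamini-Hochberg adjusted over all genes at 0.05; DESeq2 1.42.0 and limma 3.58.1 (R 4.3.3) were alternatives. log2 CPM used a prior count of 2. Nothing names separate batches. The script was checked on simulated counts. The members, lists and tests were chosen with earlier results of these data known. Genes were named by rule: fixed members, the extremes of level and spread, those nearest the count minimum, and the 5 smallest p per direction. The tests of paralogue shares and the other short genes were added after values were seen. Positions and snoRNA genes came from GENCODE vM21, starts from RefSeq GRCm38.p6; protein sequences were not used here. A few genes are not reported here by name; they stay in the counts and medians.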

Additional observations from a re-analysis of the deposited data

Results flagged for a closer look

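Some groups of tumours held 1 value far from the rest in RPKM (138 groups were examined, each gene named by the rule and the family mean in each genotype, and chance flags about 1 in 20); 12 did, which are not independent because the genes move together. In 9 of the 12 the tumour was wt 4, the highest of its group. There Rpl10 reached 311 RPKM against 148 to 206 in the other wt tumours, Rpl21 178 against 77.7 to 100, Rpl23 315 against 140 to 195, and Rpl35 591 against 192 to 336. Rpl36a reached 109 against 42.9 to 67.4, Rpl36al 678 against 263 to 405, Rps12 67.8 against 25.5 to 40.8, Rps16 476 against 162 to 258, and Rps26 847 against 439 to 584. In the other 3 the tumour was het 6, the highest of the het tumours, with Rpl7l1 at 74.8 RPKM against 41.9 to 49.6, Rps2 at 222 against 143 to 154 and Rps29 at 14.9 against 9.83 to 10.9.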

How the results depend on the processing

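The number of members past the threshold was 0 in each of the 3 comparisons under each alternative run: DESeq2, limma-voom, limma on log2(RPKM + 1), RLE and upper-quartile factors, no Rn45s, no filter on low counts, the compared genotypes alone, all 18 tumours with site, a replicate block, count minimums of 10 and 500, wt 1 and wt 2 left out together, and each tumour left out in turn. Same-numbered mice did not deviate together (r from -0.45 to 0.33 over 16 pairs, 4 above 0.1), while differently numbered pairs ran from -0.58 to 0.62. Expression thus gave no sign of pairing by number. It cannot tell whether same-numbered mice were related or handled together. With the replicate block the medians of members were -0.24 in hom against wt, -0.12 in het against wt and -0.12 in hom against het, with 0 members called. Of all tested genes, 2 were called in hom against wt in that run. With 1 tumour left out the median ran from -0.39 (without hom 2) to -0.055 (without wt 4) in hom against wt. Without hom 2, 19 of the 79 genes had an unadjusted p under 0.05 in edgeR. The share of all tested genes was not counted for that run. With all tumours it was 16.0%, with 2 of the 79 genes.

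Single estimates near 0 crossed it. With 1 tumour left out, hom against wt ran from -0.21 (without hom 4) to 0.56 for Rps4l and from -0.057 (without hom 3) to 0.10 for Rpl3. In het against wt it ran from -0.075 to 0.27 for Rpl37, from -0.069 to 0.13 for Rps14 and from -0.12 to 0.19 for Rps21, lowest without wt 3 and highest without wt 4. In hom against het, lowest without hom 2, it ran from -0.033 to 0.22 for Rps26 and from -0.034 to 0.25 for Rpl21. Without wt 1 and wt 2, Rpl3 was at -0.0075 in hom against wt and Rps21 at -0.027 in het against wt. The cause was not tested; each setting holds fewer tumours. TOP starts were counted in 45.8% of genes when the tract could begin within 5 bases, an alternative added after seeing the data. Rps29, with a mean count of 72.7, rests on the lowest counts of the members; whether depth or multiply mapped reads set its level was not tested.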
